A study of Homo sapiens with 4 samples.

Results

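The genes examined here encode the tricarboxylic acid (TCA) cycle and the routes by which pyruvate, glutamate and malate enter or leave it. The set was a list of 30 gene symbols, and all 30 were found among the 26506 symbols of both expression tables. RNA sequencing was performed on HeyC2 and SKOV3, established human ovarian cancer cell lines, to compare cells given TET1 with control cells. TET1 is an enzyme that oxidises methylated cytosine in DNA. In each cell line, control cells (labelled Wild-type) received an empty plasmid and TET1 cells (labelled TET1 overexpressed) received pCMV6/TET1, in which a CMV promoter drives full-length TET1. Each transfection used 3 μg of plasmid and lipofectamine 2000, and all cells, controls included, were selected and grown in 400 μg/ml Geneticin. The 4 libraries were therefore 1 per condition and cell line, each from a drug-selected population, so the spread between cultures is not known and no difference was tested.

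In the TCA cycle, acetyl-CoA joins oxaloacetate to form citrate, which is oxidised stepwise back to oxaloacetate while electrons pass to the respiratory chain. Pyruvate enters mitochondria through the pyruvate carrier and is turned into acetyl-CoA by the pyruvate dehydrogenase complex or into oxaloacetate by pyruvate carboxylase, and glutamine carbon enters as 2-oxoglutarate through glutamate. 2-Oxoglutarate is also a cosubstrate of TET enzymes, and succinate and fumarate inhibit them.

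Levels are given as FPKM, the number of sequenced fragments divided by transcript length and by library depth, so that genes can be compared per length. GAPDH had the same FPKM in TET1 and control, 5417.35 in HeyC2 and 2248.44 in SKOV3, because each TET1 column had been multiplied by 1 constant, 3.23 in HeyC2 and 1.35 in SKOV3. On the log2 scale these constants were 1.69 in HeyC2 and 0.43 in SKOV3. The median log2 change of all genes as deposited differed from them, at 1.61 in HeyC2 and 0.59 in SKOV3. Each change is therefore given as log2((TET1 + 1)/(control + 1)) minus that median and is called the relative log2 change. Where a pair of FPKM values or ratios is given for a cell line, the control comes first and TET1 second, and a value in parentheses after them is TET1 before the GAPDH scaling. A gene was called higher or lower when it lay at least 1.5-fold from the all-gene median. TET1 itself went from 0.20 to 1.68 FPKM in HeyC2 (0.519 before the scaling) and from 0.43 to 2.42 FPKM in SKOV3 (1.80 before the scaling). Library depth was estimated at 6520000 to 7300000 fragments. The epithelial keratins KRT8 and KRT18 and the ovarian lineage factor PAX8 were abundant in all 4 libraries. In HeyC2, however, CDH1 was at 0, EPCAM at 0.09 and 1.23 FPKM and KRT19 at 0.62 and 5.14 FPKM. WT1 and MUC16 were at 0.71 FPKM or less throughout. Of the blood markers, CD3E was at 0 and PTPRC at 0.38 FPKM or less, while the macrophage and lysosomal gene CD68 was at 12.74 to 291.65 FPKM. Both TET1 libraries stood apart from their controls in some markers. In SKOV3, KRT7 went from 1537.2 to 29.55 FPKM, KRT19 from 255.14 to 0.62 FPKM and the collagen gene COL1A1 from 0.32 to 37.22 FPKM. In HeyC2, KRT7 went from 289.68 to 3637.3 FPKM as deposited and the endothelial cadherin CDH5 from 18.85 to 306.07 FPKM, with the other endothelial markers PECAM1 and VWF at 0.55 FPKM or less.

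Because TET1 acts on methylated CpG dinucleotides, the 200 bases upstream of the start of the canonical transcript are shown for PC and IDH3B, whose relative changes were called in opposite directions in the cell lines, for IDH1, the member called higher in SKOV3, and for ME3, whose level differed most between the lines. The sequences were read from GRCh37 on the minus strand of each gene, 5′ to 3′, with every CG in capitals. This start can lie inside the span printed for a gene, which covers all its transcripts, as it does for IDH1. They lie at chr11:66725855-66726054 for PC, chr20:2644863-2645062 for IDH3B, chr2:209119796-209119995 for IDH1 and chr11:86383659-86383858 for ME3.
PC: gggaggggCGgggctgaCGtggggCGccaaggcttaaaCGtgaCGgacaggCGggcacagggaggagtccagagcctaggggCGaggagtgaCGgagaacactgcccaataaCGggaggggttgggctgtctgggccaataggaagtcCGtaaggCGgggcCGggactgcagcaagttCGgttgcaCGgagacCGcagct
IDH3B: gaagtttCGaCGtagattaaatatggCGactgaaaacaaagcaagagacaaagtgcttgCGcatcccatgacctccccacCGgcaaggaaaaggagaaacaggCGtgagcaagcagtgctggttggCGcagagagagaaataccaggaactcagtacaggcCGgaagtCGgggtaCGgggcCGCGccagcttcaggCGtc
IDH1: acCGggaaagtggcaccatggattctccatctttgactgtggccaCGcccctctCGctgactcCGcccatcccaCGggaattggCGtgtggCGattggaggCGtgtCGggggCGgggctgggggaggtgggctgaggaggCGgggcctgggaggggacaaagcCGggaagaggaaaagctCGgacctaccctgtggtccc
ME3: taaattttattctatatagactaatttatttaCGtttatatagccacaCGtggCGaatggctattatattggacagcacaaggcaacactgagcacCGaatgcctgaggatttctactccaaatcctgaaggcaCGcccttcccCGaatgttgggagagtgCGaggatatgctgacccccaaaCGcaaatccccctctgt
The PC window held 15 CpG, the IDH3B and IDH1 windows 13 each, and the ME3 window 8. Over all 30 members the number of CpG ran from 7 in SUCLG1 to 30 in GLUD1 with a median of 19, and the median over 13207 genes was also 19. Under 10 CpG were found in 2 members, SUCLG1 and ME3, and in 17.1% of all windows. Motifs were searched on both strands as exact letters. CCAAT was present in 13 members (43.3%), PC, IDH1 and ME3 among them, and in 30.6% of all windows. GGGCGG, the GC box, was present in 22 members (73.3%) and in 67.1% of all windows. The GABP letters CCGGAAGT were present in 3 members, IDH3B, DLST and MDH2, and in 6.29% of all windows. ME3 was the member with CACGTG, an E-box found in 7.69% of all windows, and also the one with TATAAA, found in 4.22%. OGDH was the member with the cyclic AMP response element TGACGTCA, found in 2.63%. No member held the oestrogen-related receptor element TCAAGGTCA, found in 0.0454%. Methylation was not measured in these libraries.

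The TCA cycle genes were well expressed in both cell lines, and their summed level took a similar share of each library. The 30 genes together held 0.218% (control) and 0.207% (TET1) of all FPKM in HeyC2, and 0.244% and 0.256% in SKOV3. Their median FPKM as deposited was 29.7 (control) and 97.8 (TET1) in HeyC2, and 31.4 and 39.1 in the SKOV3 libraries. In each library 19 of the 30 lay in the top 25% of expressed genes. The most abundant member was MDH1, cytosolic malate dehydrogenase, at 82.70 FPKM in the HeyC2 control, SUCLG2, a succinyl-CoA ligase subunit, at 264.02 FPKM in HeyC2 TET1, and SLC25A1, the mitochondrial citrate carrier, at 138.72 and 227.16 FPKM in the SKOV3 libraries. The least abundant was ME2 in HeyC2 and ME3 in SKOV3.

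**Figure D1:**
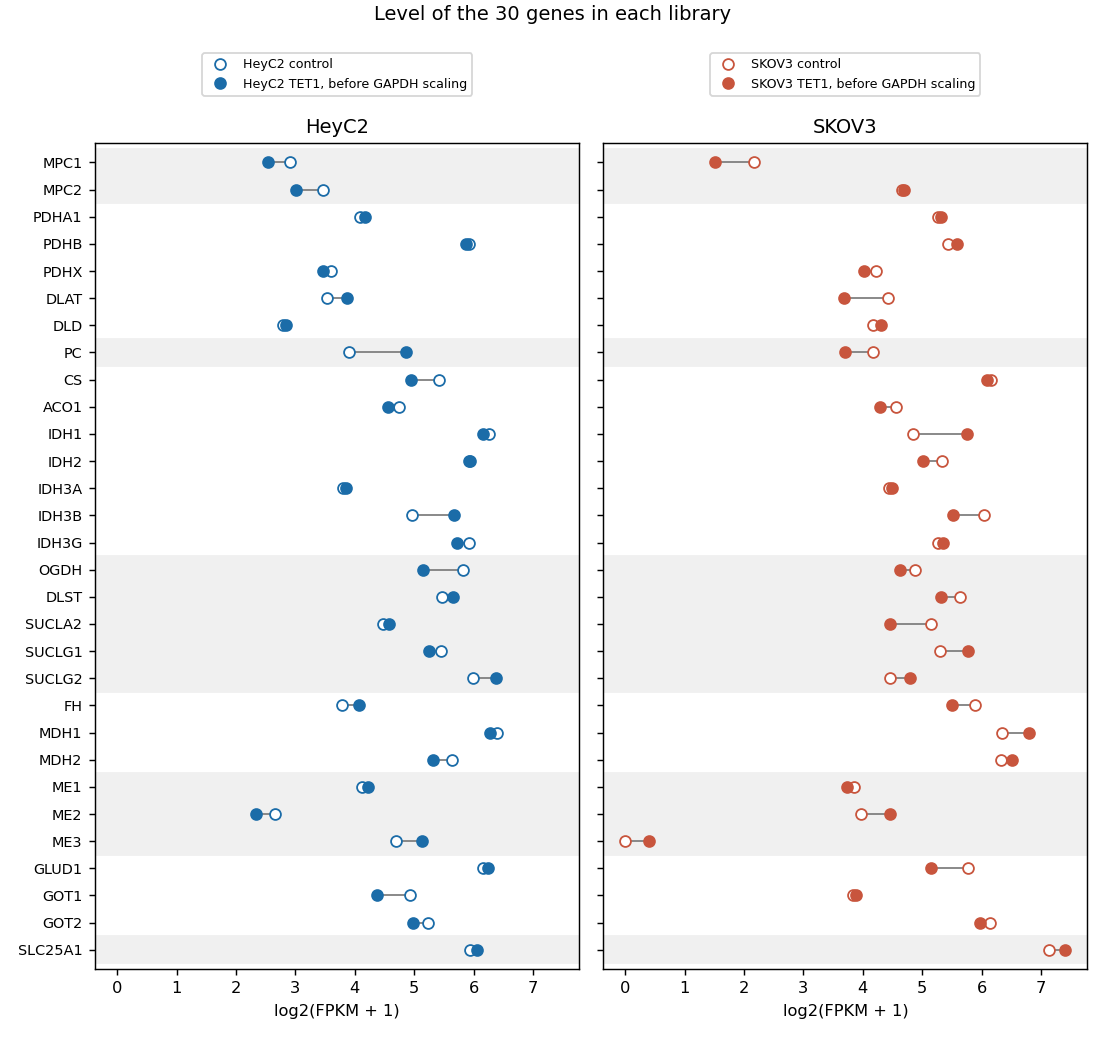
Level of the 30 genes in each library, as log2(FPKM + 1) on the x axis, with open circles for control and filled circles for TET1 before the GAPDH scaling (1 library each). Most pairs of circles lie close together, and the gaps that stand out include PC and OGDH in HeyC2 and IDH1, DLAT and MPC1 in SKOV3.

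In HeyC2 the 30 genes were centred on the all-gene median, whereas in SKOV3 most of them lay below it. All 30 passed the filter of a mean of at least 1 FPKM in HeyC2, where 15 lay above and 15 below the all-gene median, as do 50% of all genes by construction. In that line 2 members were called higher, PC and IDH3B, against 13% of the 12993 genes that passed, and 1 was called lower, OGDH, against 12.9%. In SKOV3, 29 passed, of which 7 lay above and 22 below the median (50% each for all genes). There, 1 member was called higher, IDH1, against 20.6% of 13339 genes, and 6 were called lower, MPC1, DLAT, PC, IDH3B, SUCLA2 and GLUD1, against 17.9%. The share of members was 6.67% higher and 3.33% lower in HeyC2 and 3.45% higher and 20.7% lower in SKOV3, so that in HeyC2 both shares, and in SKOV3 the higher share, were below those of all genes, and the lower share in SKOV3 was near its background.

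The median relative log2 change of the members was 0.01 in HeyC2, with a range from -0.62 to 1.02, and -0.23 in SKOV3, with a range from -0.96 to 0.75. Their spread was narrower than that of all genes, with an SD over genes of 0.38 against 0.63 in HeyC2 and 0.41 against 0.82 in SKOV3. The approximate counting SE of a member's change ran from 0.05 to 0.38 in HeyC2 and from 0.05 to 0.58 in SKOV3, and it covers counting error only. In SKOV3 the relative change of all genes fell with level, from a bin median of 0.39 at the lowest levels to -0.35 at the highest, and most members sat in the upper bins. Against genes of like level the member median was -0.08 in SKOV3, with 1 higher (background 19.2%) and 5 lower (background 16.8%), and -0.06 in HeyC2, with 2 higher (13.4%) and 2 lower (10.6%). The split of higher and lower members in HeyC2 was also 2 and 2 after rescaling to TPM, after upper-quartile scaling and before the GAPDH scaling, and in SKOV3 it was 1 and 3 after rescaling to TPM. On the deposited scale all 30 genes were higher in HeyC2 TET1 than in its control, where 1.21% of all genes were lower, and the 6 called lower in SKOV3 were lower there too, as were 17.8% of all genes.

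**Figure D2:**
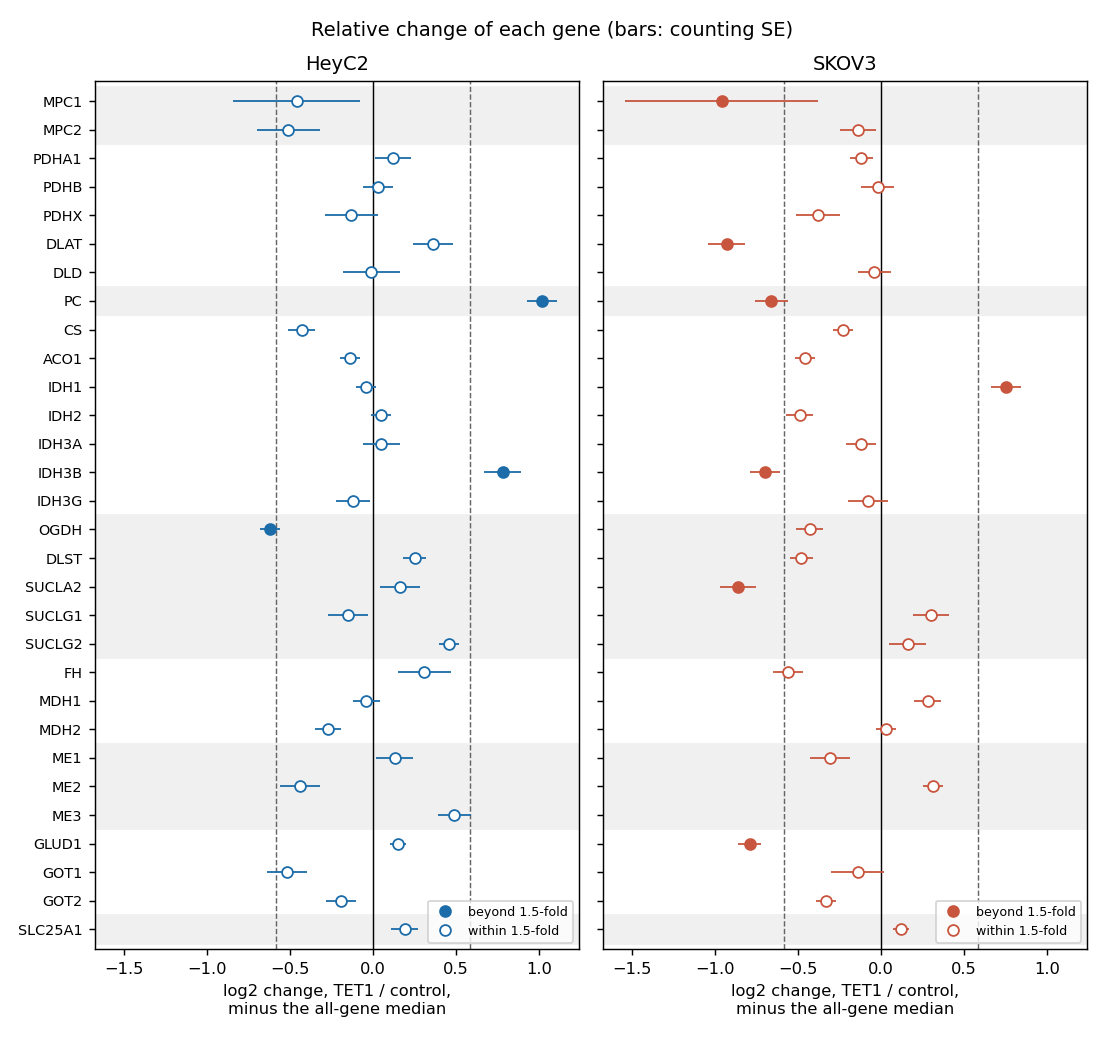
Relative log2 change of each gene (TET1 against control, minus the all-gene median), with bars for the approximate counting SE, dashed lines at 1.5-fold and filled circles for genes beyond it. In HeyC2 the circles lie on both sides of 0, whereas in SKOV3 22 of 29 lie below it.

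**Figure D3:**
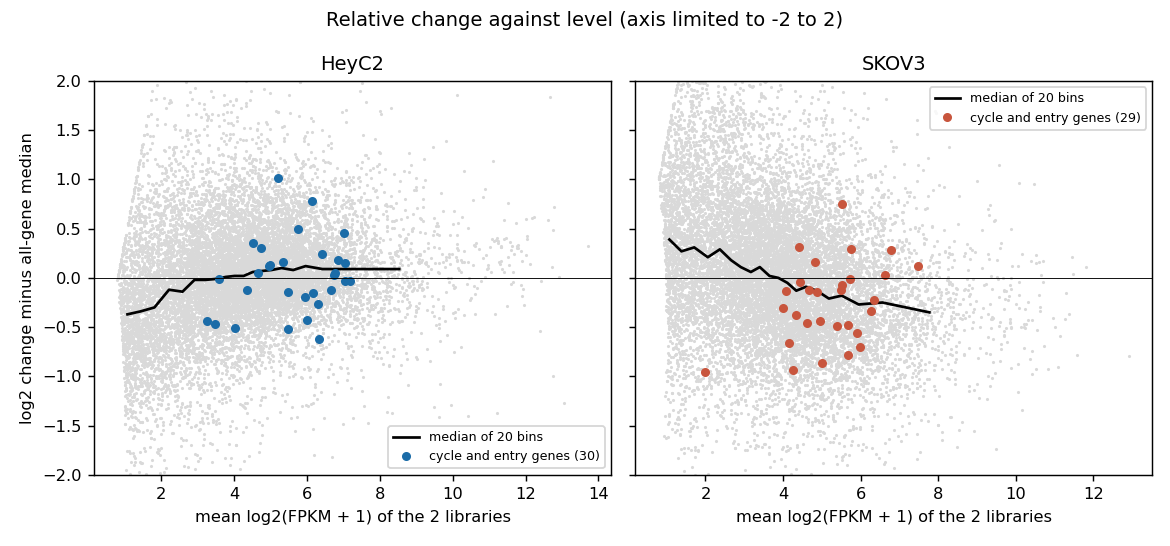
Relative log2 change of every gene that passed the filter (grey) against its mean log2(FPKM + 1) over the 2 libraries of a line, with the median of 20 level bins (black line) and the cycle genes in colour. The SKOV3 line falls from 0.39 to -0.35 as level increases, and the HeyC2 line goes from -0.37 to 0.09.

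Genes of the mitochondrial pyruvate carrier, a complex of MPC1 and MPC2, lay below the all-gene median in both cell lines at the reported setting. MPC1 (chromosome 6, 166778407 to 166796501) was at 6.5 FPKM in the HeyC2 control and 15.59 in HeyC2 TET1 (4.82 before the scaling), and at 3.50 and 2.49 (1.85) in SKOV3. Its relative log2 change was -0.46 in HeyC2 and -0.96 in SKOV3, where it was the lowest of the members. The SKOV3 value rested on about 18 and 9 fragments and had a counting SE of 0.58. MPC2 was at 10.10 and 22.74 FPKM (7.03) in HeyC2 and at 24.16 and 33.30 FPKM (24.7) in SKOV3, with relative log2 changes of -0.51 and -0.14. The SKOV3 change of MPC2 was 0.09 after TPM rescaling and 0.01 after upper-quartile scaling. MPC2 shares 575 exon bases (21.8% of its exons) with DCAF6 on the opposite strand. DCAF6 was at 29.16 and 113.37 FPKM in HeyC2 and at 22.78 and 43.17 FPKM in SKOV3. The ratio of MPC2 to MPC1 was 1.55 (control) and 1.46 (TET1) in HeyC2 and 6.90 and 13.4 in SKOV3. MPC1 thus had the lower FPKM of the pair in every library.

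Among the 5 genes of the pyruvate dehydrogenase complex, which makes acetyl-CoA from pyruvate, 1 was called. DLAT (chromosome 11, 111896132 to 111935128), its acetyltransferase core, was at 10.48 and 43.92 FPKM (13.6 before the scaling) in HeyC2 and at 20.52 and 15.96 FPKM (11.9) in SKOV3. It was 1.91-fold below the all-gene median in SKOV3 (relative log2 change -0.93, counting SE 0.11) and at 0.36 in HeyC2. The other members of the complex are the E1 subunits PDHA1 and PDHB, the dehydrogenase DLD and the E3-binding protein PDHX, and their relative changes ran from -0.13 to 0.12 in HeyC2 and from -0.38 to -0.02 in SKOV3. DLAT shares 1004 exon bases with PIH1D2 on the opposite strand, which was at 0.5 and 4.88 FPKM in HeyC2 and at 0.92 and 2.26 FPKM in SKOV3. DLAT relative to PDHB was 0.176 and 0.235 in HeyC2 and 0.486 and 0.252 in SKOV3, so the SKOV3 TET1 ratio was near the HeyC2 TET1 ratio.

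Pyruvate carboxylase, the enzyme that refills oxaloacetate from pyruvate, showed the largest relative change of the 30 genes in HeyC2. PC (chromosome 11, 66615888 to 66725857) was at 13.94 FPKM in the HeyC2 control and 91.31 in HeyC2 TET1 (28.2 before the scaling), and at 17.10 and 16.20 (12) in SKOV3. Before the scaling HeyC2 TET1 was thus the high library, and the others lay between 12 and 17.10 FPKM. Its relative log2 change was 1.02 (counting SE 0.09), or 2.03-fold above the median, in HeyC2 and -0.66 (counting SE 0.10), or 1.58-fold below it, in SKOV3. The SKOV3 call was lost without a filter on low values, after TPM rescaling and after upper-quartile scaling. The ratio of PC to PDHA1, which stand at the entry routes of pyruvate into the cycle, was 0.874 in the HeyC2 control and 1.66 in HeyC2 TET1, and 0.457 and 0.311 in the SKOV3 libraries. PC shares 621 exon bases (8.5% of its exons) with LRFN4 on the opposite strand. LRFN4 was at 17.03 and 68.5 FPKM in HeyC2 and at 17.63 and 27.33 FPKM in SKOV3, and a stranded kit is not stated in the sources used here. Of the 30 members, 16 share exon bases with another gene in the annotation, 11 of them with a gene in the tables.

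Of the 7 genes of the citrate and isocitrate steps, IDH3B and IDH1 were called. IDH3B (chromosome 20, 2639041 to 2644865), a subunit of the NAD-dependent mitochondrial isocitrate dehydrogenase, was at 30 and 160.98 FPKM (49.8 before the scaling) in HeyC2 and at 64.74 and 59.96 FPKM (44.6) in SKOV3. Its relative log2 change was 0.78 (counting SE 0.11) in HeyC2 and -0.70 (counting SE 0.09) in SKOV3. The SKOV3 call was lost under the same settings as that of PC and also against genes of like level, where it was -0.43. The catalytic subunit IDH3A was at 0.05 and -0.12 and the subunit IDH3G at -0.12 and -0.08, so IDH3B was the one subunit of this enzyme beyond 1.5-fold. The ratio of IDH3B to IDH3A was 2.31 and 3.71 in HeyC2 and 3.13 and 2.07 in SKOV3.

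IDH1 (chromosome 2, 209100953 to 209130798), the NADP-dependent isocitrate dehydrogenase of the cytosol and peroxisomes, was at 75.74 and 227.38 FPKM (70.3 before the scaling) in HeyC2 and at 27.70 and 71.63 FPKM (53.2) in SKOV3. The SKOV3 control was the low library. The relative log2 change was -0.04 in HeyC2 and 0.75 (counting SE 0.09), or 1.68-fold above the median, in SKOV3. IDH2, its mitochondrial counterpart, was at 60.64 and 193.38 FPKM in HeyC2 and at 39.27 and 42.25 FPKM in SKOV3, with relative changes of 0.05 and -0.49. The ratio of IDH1 to IDH2 was therefore 1.25 and 1.18 in HeyC2 but 0.705 and 1.70 in SKOV3, a ratio that does not depend on the GAPDH scaling. CS, the citrate synthase, had relative log2 changes of -0.43 in HeyC2 and -0.23 in SKOV3. ACO1, the cytosolic aconitase that also acts as iron regulatory protein, had -0.14 and -0.46. ACO1 was at 25.81 and 73.19 FPKM in HeyC2 and at 22.61 and 24.85 FPKM in SKOV3.

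The steps from 2-oxoglutarate to succinate held 1 called gene in each line. OGDH (chromosome 7, 44646171 to 44748665), the E1 subunit of the 2-oxoglutarate dehydrogenase complex, was at 55.57 and 111.13 FPKM (34.4 before the scaling) in HeyC2 and at 28.48 and 31.80 FPKM (23.6) in SKOV3. It lay 1.54-fold below the all-gene median in HeyC2 (relative log2 change -0.62, counting SE 0.06), just past the threshold, and at -0.43 in SKOV3. As deposited, without centring, the HeyC2 change was 0.99, and without a filter on low values it was inside 1.5-fold. DLST, the succinyltransferase core of the same complex, was at 0.25 in HeyC2 and -0.48 in SKOV3. The ratio of OGDH to DLST was 1.28 in the HeyC2 control and between 0.588 and 0.696 in the other libraries.

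Succinyl-CoA ligase has a shared alpha subunit, SUCLG1, and either of 2 beta subunits, the ADP-forming SUCLA2 or the GDP-forming SUCLG2. SUCLA2 (chromosome 13, 48319871 to 48612104) was at 21.07 and 74.10 FPKM (22.9 before the scaling) in HeyC2 and at 34.35 and 28.27 FPKM (21.0) in SKOV3, with relative log2 changes of 0.16 and -0.86 (counting SE 0.11). SUCLG2 was at 62.19 and 264.02 FPKM in HeyC2 and at 21.04 and 35.98 FPKM in SKOV3, with relative log2 changes of 0.46 and 0.16. SUCLG2 made up 74.7% and 78.1% of the summed beta subunit FPKM in HeyC2 and 38% and 56% in SKOV3, so the more abundant beta subunit in SKOV3 was SUCLA2 in the control and SUCLG2 in TET1. SUCLG1 was at -0.15 in HeyC2 and 0.30 in SKOV3. SUCLA2 has 3 named pseudogenes.

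No gene of the fumarate and malate steps or of the malic enzymes was called. FH, the fumarase, was at 12.73 and 50.84 FPKM in HeyC2 and at 58.38 and 59.77 FPKM in SKOV3. Its relative log2 changes were 0.31 and -0.56, the latter just inside the threshold. MDH1 was at 82.70 and 247.98 FPKM in HeyC2 and at 80.51 and 148.17 FPKM in SKOV3, and mitochondrial MDH2 at 48.84, 125.40, 78.92 and 121.47 FPKM in the same order. MDH1 was the more abundant of the pair in every library, with 62.9% and 66.4% of their sum in HeyC2 and 50.5% and 55% in SKOV3.

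The malic enzymes, which turn malate into pyruvate, included the member that differed most between the cell lines. ME3 (chromosome 11, 86152150 to 86383678), a mitochondrial NADP-dependent form, was at 24.80 and 109.78 FPKM (33.9 before the scaling) in HeyC2, whereas in SKOV3 it was listed at 0 in the control and at 0.42 FPKM in TET1, about 4 fragments. It did not pass the filter in SKOV3, and its relative log2 change in HeyC2 was 0.49. ME3 made up 53.4% and 61% of the summed malic enzyme FPKM in HeyC2 and 0% and 0.932% in SKOV3. Cytosolic ME1 was at 16.34 and 56.93 FPKM in HeyC2 and at 13.51 and 16.59 FPKM in SKOV3. Mitochondrial NAD-dependent ME2 was at 5.30 and 13.16 FPKM in HeyC2 and at 14.57 and 28.07 FPKM in SKOV3, with relative log2 changes of -0.44 and 0.31. The ME2 share of the malic enzymes was thus 11.4% and 7.32% in HeyC2 and 51.9% and 62.3% in SKOV3.

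Of the glutamate and aspartate genes, GLUD1 was called in SKOV3. GLUD1 (chromosome 10, 88809959 to 88854600), the mitochondrial glutamate dehydrogenase, was at 70.27 and 240.38 FPKM (74.3 before the scaling) in HeyC2 and at 53.49 and 46.47 FPKM (34.5) in SKOV3. Its relative log2 change was 0.15 in HeyC2 and -0.79 (counting SE 0.07) in SKOV3, a call that was lost after TPM rescaling. GLUD1 has 5 named pseudogenes and the near-identical copy GLUD2, which was at 0.89 FPKM or less, so its level is uncertain where reads could be split among them. The aspartate transaminases GOT1, of the cytosol, and GOT2, of mitochondria, were at -0.52 and -0.19 in HeyC2 and at -0.14 and -0.33 in SKOV3. GOT1 was at 29.34 and 63.59 FPKM in HeyC2 and at 13.32 and 18.58 FPKM in SKOV3, and GOT2 at 36.51, 99.39, 69.60 and 83.28 FPKM in the same order. GOT1 made up 44.6% and 39% of the pair in HeyC2 and 16.1% and 18.2% in SKOV3, a wider gap between the lines than within either. SLC25A1, which exports citrate from mitochondria, was at 60.47 and 212.40 FPKM in HeyC2 and at 138.72 and 227.16 FPKM in SKOV3, with relative log2 changes of 0.19 and 0.12. GOT2 has 6 named pseudogenes and SLC25A1 has 5, and some other members have fewer, so the same caution applies to their levels.

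**Figure D4:**
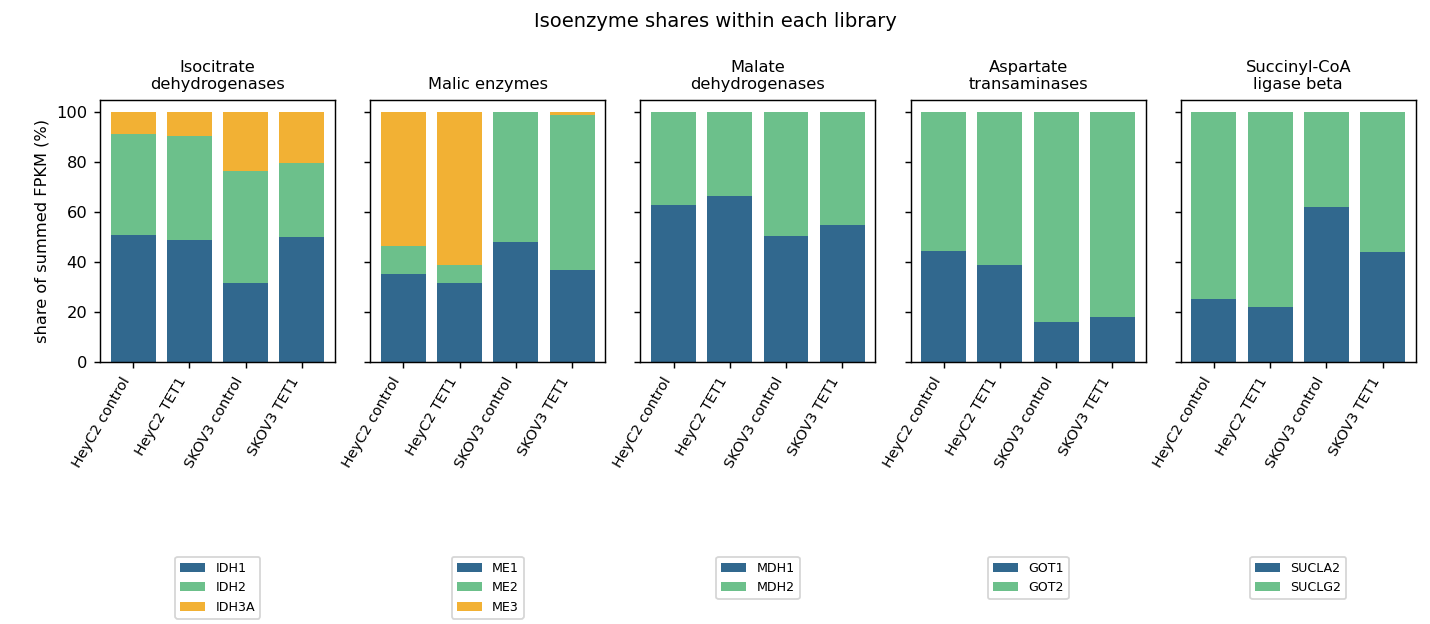
Share of each isoenzyme in the summed FPKM of its family within a library (y axis, percent, stacked to 100), a quantity that the GAPDH scaling does not change. IDH1 takes 31.6% in the SKOV3 control and between 49% and 50.7% in the other libraries, and ME3 takes 53.4% and 61% in HeyC2 and under 1% in SKOV3.

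The direction of the relative change was compared between the cell lines. Of the 29 members that passed in both lines, 2 lay above the median in both, SUCLG2 and SLC25A1, and 10 lay below it in both. A total of 12 were above it in HeyC2 and below it in SKOV3, and 5 the reverse. The same side in both lines was thus seen for 12 of 29 (41.4%), against 52.4% of the 11888 genes that passed in both. This count depended on the processing. It was 10 after TPM rescaling or upper-quartile scaling, 16 before the GAPDH scaling and 17 with a pseudocount of 0.01. These counts lie on both sides of the background, which was computed for the reported setting only. No member was called in the same direction in both lines, against 3.58% of genes called higher in both and 2.73% called lower in both. With 29 members, none is near these small shares. PC and IDH3B were called higher in HeyC2 and lower in SKOV3, as were 2.08% of genes, and no member was called in the reverse pattern, as were 2.31%. Across the 29 genes, which are not independent replicates, the relative changes in HeyC2 and SKOV3 gave a Spearman rho of -0.28, compared with 0.08 across all genes.

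**Figure D5:**
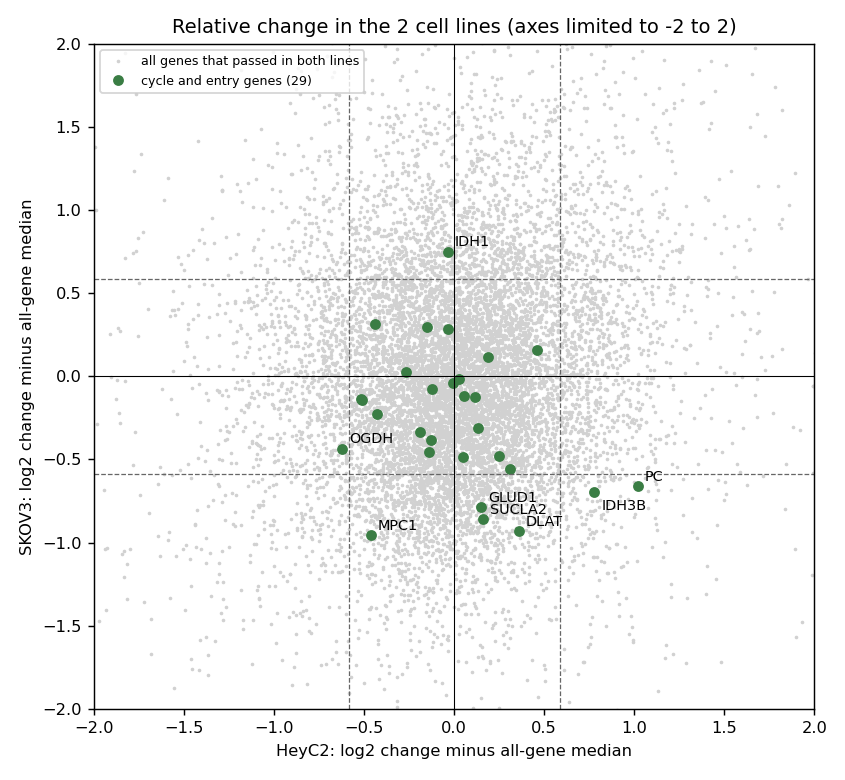
Relative log2 change in HeyC2 (x axis) against that in SKOV3 (y axis) for the 29 cycle genes that passed in both lines (green) and all genes (grey), with dashed lines at 1.5-fold and names on the called members. PC and IDH3B lie at the lower right (1.02 and -0.66, 0.78 and -0.70), and no green point lies in the corner squares at the upper right and lower left.

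The control libraries of the cell lines differed in these genes about as often as in all genes. The tables were deposited separately, so the difference, HeyC2 minus SKOV3, was set against its own all-gene median. On this scale 10 members were at least 1.5-fold higher in HeyC2, against 29% of all genes, and 9 were at least 1.5-fold higher in SKOV3, against 28.6%. The median over the 30 members was 0.05. Besides ME3, the log2 differences were highest for SUCLG2 (1.79), IDH1 (1.69), GOT1 (1.35) and OGDH (1.21) and lowest for FH (-1.85), DLD (-1.11) and ME2 (-1.04). FH was thus at 12.73 FPKM in the HeyC2 control and 58.38 in the SKOV3 control.

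Further genes of the pathway were counted from fixed lists. Of 10 succinate dehydrogenase and remaining cycle genes that passed in HeyC2, 4 were called higher (13% of all genes) and 0 lower (12.9%). Of 11 that passed in SKOV3, 2 were called higher and 2 lower, near the shares of all genes (20.6% and 17.9%). SDHD, a membrane anchor of succinate dehydrogenase, was at 0.77 in HeyC2 and -0.75 in SKOV3, the pattern of PC and IDH3B. Its FPKM was 67.74 and 355.52 (110.0 before the scaling) in HeyC2 and 72.34 and 64.47 (47.9) in SKOV3. SDHB, the iron-sulphur subunit, was at -0.87 in SKOV3, and the assembly factors SDHAF1 and SDHAF2 were at 0.87 and 0.74 in HeyC2. D2HGDH, which oxidises D-2-hydroxyglutarate, was called higher in both lines, at 1.14 in HeyC2 and 0.60 in SKOV3. OGDHL, a relative of OGDH, was at 1.86 in SKOV3, with 3.64 and 24.24 FPKM, and at 0 in both HeyC2 libraries.

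Of 12 genes of glutamine and amino acid entry that passed in each line, 3 were called higher and 4 lower in HeyC2 (13% and 12.9% of all genes), and 7 were called higher and 1 lower in SKOV3 (20.6% and 17.9% of all genes). The serine synthesis enzyme PSAT1, which makes 2-oxoglutarate from glutamate, was at -2.48 in HeyC2 and 1.22 in SKOV3, asparagine synthetase ASNS at -2.35 and 2.48, and the glutamine importer SLC1A5 at -1 and 0.59. ASNS was at 22.22 and 12.91 FPKM in HeyC2 and at 9.61 and 87.96 FPKM in SKOV3, so it was lower in TET1 in HeyC2 and higher in TET1 in SKOV3 even as deposited. SLC7A5, an exchanger of large amino acids, was lower in both lines, at -2.39 and -1.42. In HeyC2 the higher genes included the glutamine transporter SLC38A2 (0.91) and the proline synthesis enzyme PYCR1 (0.64). PYCR1 was also higher in SKOV3 (1.60), together with the alanine transaminase GPT2 (1.61), glutamine synthetase GLUL (1.17) and ALDH4A1 of proline breakdown (0.60). The relative changes on this list thus reached -2.48 and 2.48, compared with -0.96 and 1.02 among the 30 members.

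The counts on the other lists were mostly at or near the shares of all genes, 13% higher and 12.9% lower in HeyC2 and 20.6% and 17.9% in SKOV3. Of the 11 regulators of pyruvate dehydrogenase and lipoylation genes, 10 passed in HeyC2, with 1 called higher, the kinase PDK3 (0.70), and 1 lower, the lipoyltransferase LIPT2 (-0.87). All 11 passed in SKOV3, with 1 called higher, the phosphatase PDP2 (0.74), and 1 lower, the kinase PDK1 (-0.73). Of the mitochondrial carriers, 0 of 8 were called higher and 1 lower in HeyC2, the acylcarnitine carrier SLC25A20 (-0.68), and 0 of 7 higher and 2 lower in SKOV3, the dicarboxylate carrier SLC25A10 (-1.20) and the glutamate carrier SLC25A22 (-0.75). Of 10 genes of citrate use and cataplerosis, 2 were called higher in HeyC2, the fatty acid synthase FASN (0.79) and the acetyl-CoA synthetase ACSS2 (0.65), and 2 lower, ACSS1 (-0.89) and the mitochondrial PEP carboxykinase PCK2 (-1.32). In SKOV3, PCK2 was called higher (2.42) and lactate dehydrogenase LDHA lower (-0.98). Of the 2-oxoglutarate-dependent enzymes, TET2 was called lower in HeyC2 (-0.59), and the histone demethylase KDM5B (1.21) and TET1 (0.67) were called higher in SKOV3. TET1 is the gene carried by the plasmid, so its call follows from the design. It passed the filter in SKOV3 only through the TET1 library and did not pass it in HeyC2.

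Markers of dividing cells moved in the same libraries. Of 5 proliferation genes, 4 were called lower and 1 higher (PCNA, 0.83) in HeyC2, where MKI67 was at -2.31, and all 5 were called lower in SKOV3. Lower calls took 12.9% of all genes in HeyC2 and 17.9% in SKOV3. Their summed FPKM was 171 and 451 in HeyC2 as deposited and 764 and 493 in SKOV3. Of the fibroblast genes in SKOV3, COL1A1 went from 0.32 to 37.22 FPKM, COL1A2 from 0.13 to 2.85 and LUM from 0.51 to 5.81. They passed the filter only through the TET1 library, which fixed the direction of their change, so their calls are not set against a background. The list went from 1.04 to 45.9 FPKM in sum, with the defining gene DCN at 0.08 and 0 FPKM. The part of either list in the changes of the cycle genes was not tested.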

How the data were processed

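The submitters' notes and the labels state that total RNA was made into TruSeq libraries, sequenced as paired 150 bp reads, aligned to hg19 with Bowtie2 2.2.6 and quantified with RSEM 1.2.17. Each cell line has 1 deposited table of FPKM, made by the authors, and no counts were used. The GAPDH constant of each TET1 column was inferred from the values, of which 99.84% (HeyC2) and 99.47% (SKOV3) of those up to 40 FPKM fell on the recovered grid after rounding to 0.01. From the deposited FPKM, relative log2 changes were computed after adding a pseudocount of 1, for genes averaging at least 1 FPKM, a scale that understates changes of low genes. Calls were set at 1.5-fold, and genes of like level were 20 bins of mean level. Depth was estimated from the spacing of low values, so fragment numbers and counting SE are approximate. Coordinates and promoters came from GENCODE on GRCh37, which matched 23915 of 26506 symbols (90.2%).

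The members, pathway lists and markers were chosen with earlier results of these data known. All 30 members are named, with values in all 4 libraries for called genes, the most and least abundant and enzyme pairs. Pathway list genes were named where called in a line, and some genes of the lists are not reported here. Exons shared with another gene were counted from the same annotation. On simulated data, 200 of 200 planted changes were recovered in each line (11455 genes for HeyC2, 11550 for SKOV3). The planted changes were larger than 1.5-fold and lay in well-expressed genes with counting noise only. Recovery near the threshold or at the levels of low members was therefore not measured, and calls among unchanged genes are not reported here. The alternatives were pseudocounts of 0.1 and 0.01, no filter, a mean of at least 5 FPKM, FPKM before the GAPDH scaling, TPM, upper-quartile scaling, no centring, like-level centring, GC and length correction, and thresholds of 1.2-fold and 2-fold. The tools were pandas 2.3.3 and numpy 2.4.6 in Python 3.11.15, with matplotlib 3.10.9 for the figures.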

Additional observations from a re-analysis of the deposited data

Results flagged for a closer look

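A difference between the cell lines in the direction of change was seen for PC and IDH3B. The relative log2 change of PC was 1.02 in HeyC2 and -0.66 in SKOV3. For IDH3B the values were 0.78 in HeyC2 and -0.70 in SKOV3. Each was beyond 1.5-fold in both lines and in opposite directions, as were 2.08% of all genes that passed in both. The SKOV3 calls of both genes were lost without a filter, after TPM rescaling and after upper-quartile scaling. That of IDH3B was also lost against genes of like level. With 1 library per condition the difference was not tested.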

How the results depend on the processing

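The members called higher in HeyC2 numbered 2 as reported, 4 without a filter on low values, 30 as deposited without centring, 6 at 1.2-fold and 1 at 2-fold. Those called lower in HeyC2 numbered 1 as reported, 3 with a pseudocount of 0.1 or 0.01, 2 before the GAPDH scaling, after TPM rescaling, after upper-quartile scaling and against genes of like level, 0 without a filter, as deposited and at 2-fold, and 7 at 1.2-fold. In SKOV3 those higher numbered 1 as reported, 7 as deposited, 4 at 1.2-fold and 0 at 2-fold, and those lower numbered 6 as reported, 3 after TPM rescaling, 0 as deposited, 14 at 1.2-fold and 0 at 2-fold. The cause of these differences was not tested beyond what each setting changes by construction.

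The median relative log2 change of the members in HeyC2 was 0.01 as reported, -0.10 with a pseudocount of 0.1 and after TPM rescaling, -0.12 with a pseudocount of 0.01 and after upper-quartile scaling, 0.16 without a filter and 1.62 as deposited. In SKOV3 it was -0.23 as reported, -0.06 without a filter, -0.12 at a mean of at least 5 FPKM, -0.01 after TPM rescaling, -0.09 after upper-quartile scaling, -0.08 against genes of like level and 0.36 as deposited. Members on the same side in both lines numbered 12 as reported, 10 after TPM rescaling or upper-quartile scaling, 14 after GC and length correction, 16 with a pseudocount of 0.1, without a filter and before the GAPDH scaling, 17 with a pseudocount of 0.01 and 23 as deposited. The median difference between the control libraries was 0.05 as reported, -0.25 after TPM rescaling and -0.22 as deposited.

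Of the 10 called changes, all 10 were kept with either other pseudocount, before the GAPDH scaling, after GC and length correction and at 1.2-fold. Without a filter, OGDH in HeyC2 and PC and IDH3B in SKOV3 were lost. After TPM rescaling PC, IDH3B and GLUD1 in SKOV3 were lost, after upper-quartile scaling PC and IDH3B in SKOV3, and against genes of like level IDH3B in SKOV3. MPC1 in SKOV3 did not pass a mean of 5 FPKM. At 2-fold only PC in HeyC2 was kept. As deposited, OGDH in HeyC2 was at 0.99, the opposite sign. Apart from the deposited scale, PC in HeyC2 ranged from 0.88 to 1.16 and IDH1 in SKOV3 from 0.71 to 0.98.

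No paired analysis was possible because each condition has 1 library and the labels give no replicate numbers. Leaving out a library was not possible for the same reason. Depth limits MPC1 in SKOV3, with about 18 and 9 fragments, and ME3 in SKOV3, with 0 and about 4.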
